A study of Homo sapiens with 6 samples.

Results

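The genes described here are the human ZNF genes, the numbered zinc finger genes, as they were read in 4 RNA libraries of cervical carcinoma cell lines. A member is a gene whose name starts with ZNF and a digit and that reached at least 5 CPM (counts scaled to a column total of 1000000) in at least 1 library, with each gene read from its most abundant transcript in a table. Of 10661 gene names in the tables, 279 were ZNF names, and 189 of these were members while 90 stayed below the threshold. The rule used the level in any library and not the difference between libraries, although a gene high in 1 library only enters through that library.

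Most ZNF genes encode proteins with a row of C2H2 zinc fingers, each finger contacting a few bases of DNA. In the largest group the fingers follow a KRAB domain, which binds the co-repressor TRIM28 (KAP1), and TRIM28 brings the histone methyltransferase SETDB1 and heterochromatin proteins to the bound site. Many KRAB zinc finger genes arose by tandem duplication and stand in clusters, most of all on chromosome 19, and many of their proteins bind retroelements. Other ZNF genes carry a SCAN domain or act in splicing, mitosis or transcription without a KRAB domain.

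ME-180 is a squamous cervical carcinoma line and SiHa is another cervical carcinoma line, both at passages 13 to 15. The 4 libraries were ME-180 labelled p63 knockdown (named shp63 in the labels) and its ME-180 control (plko), and SiHa with p63 overexpression and its SiHa vector control. p63 is the product of TP63, a p53 family gene active in the basal layer of stratified epithelia. The isoform overexpressed, the time after the knockdown and whether clones were picked are not stated in the sources used. Of the knockdown agent, the labels give only the names shp63 and plko. Each group had 1 library, so every difference below is a difference between libraries, no p-value was computed, and the 95% intervals of count ratios cover counting error only.

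The tables held 10046579 counts for the library labelled knockdown, 10804272 for the ME-180 control, 13690639 for SiHa with overexpression and 14207637 for the SiHa vector, which are totals of the rows present and not full depths. The transcript of TP63 with the most reads had 6 counts in the library labelled knockdown, against 5619 in the ME-180 control, and 179 counts in SiHa with overexpression, against 7 in the SiHa vector. The library labelled knockdown stood apart in its cell type markers. The 6 of 10 epithelial markers with a row, KRT5, KRT14, KRT8, KRT18, CLDN7 and DSP, summed to 313 CPM in it and to 71202 CPM in the ME-180 control, and all 6 were lower. The 8 fibroblast markers with a row summed to 173 CPM in the library labelled knockdown and 135 CPM in the ME-180 control. Of the 5 that reached 1 CPM, FBN1, COL3A1 and PDGFRB were higher (FBN1 at 97.9 CPM in the library labelled knockdown and 4.91 CPM in the ME-180 control) and COL1A1 was lower (52.2 and 127 CPM in the same order). The 7 immune markers with a row summed to 9.56 CPM in the library labelled knockdown and 53.4 CPM in the ME-180 control, with CD3E at 0 counts in the library labelled knockdown and LYZ and PDGFRB at 0 in the ME-180 control. Every ME-180 result below rests on that library, and the part of its different marker profile in the ZNF differences was not tested.

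ZNF genes were measured at modest read numbers in all 4 libraries. Among the members, the median level was 14.3 CPM in the library labelled knockdown and 12.6 CPM in the ME-180 control, over the 174 members with an ME-180 row. The median level was 9.93 CPM in SiHa with overexpression and 10.1 CPM in the SiHa vector, over the 183 members with a SiHa row. Of the 168 members with a row in both tables, 106 reached 5 CPM in all 4 libraries, 10 in 3, 13 in 2 and 39 in 1. Of those 39, 20 reached it only in the library labelled knockdown, 18 only in the ME-180 control, 0 only in SiHa with overexpression and 1 only in the SiHa vector. These 39 entered through that library alone, and the same count was not taken over all genes. On shared transcripts at 5 CPM, 46.3% of all genes and 39.6% of members were at least 2-fold apart between the ME-180 libraries. Between the SiHa libraries these shares were 0.912% and 0%. The tables list only part of the gene set, so a member without a row, such as ZNF536 in SiHa, cannot be read as not expressed. The highest levels just outside the threshold were 4.63 CPM for ZNF354C, 4.78 CPM for ZNF268 and 4.88 CPM for ZNF382, and the lowest inside were 5.14 CPM for ZNF572, 5.18 CPM for ZNF789 and 5.21 CPM for ZNF559.

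**Figure D1:**
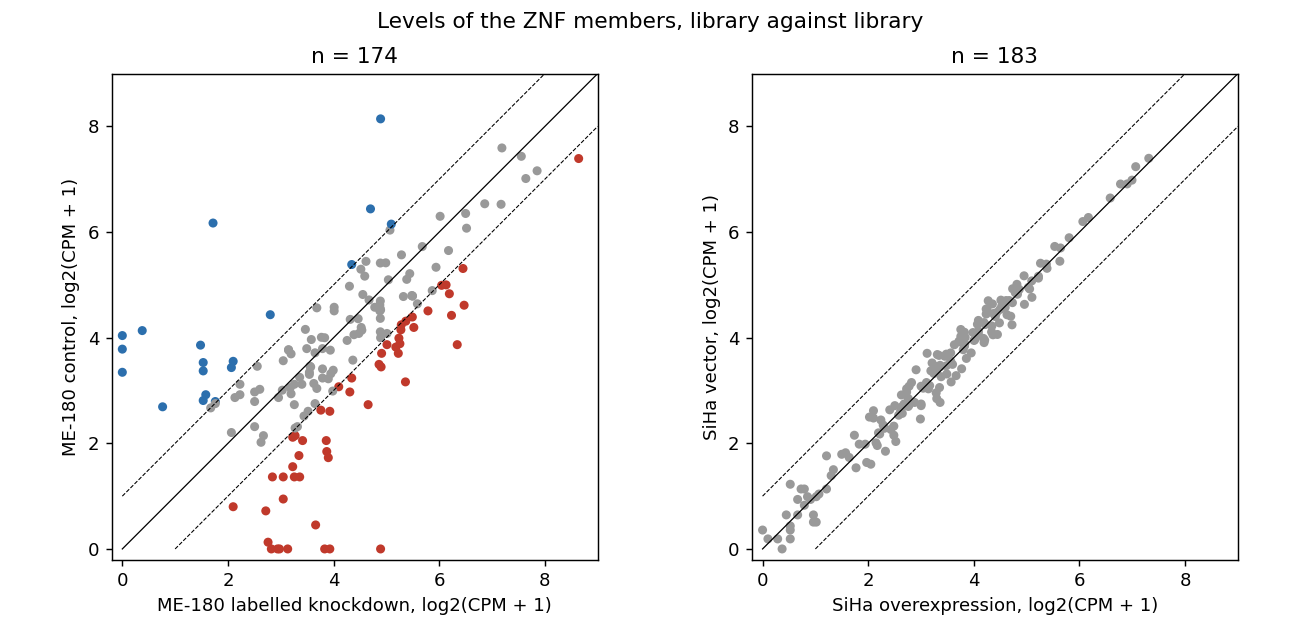
Level of each ZNF member in the libraries of a pair, as log2(CPM + 1), with 1 point per gene (left, 174 genes of ME-180, labelled knockdown on the horizontal and control on the vertical axis; right, 183 genes of SiHa, overexpression on the horizontal and vector on the vertical axis). The solid line marks equal levels and the dashed lines a 2-fold ratio; red points are higher and blue points lower by at least 2-fold in ME-180, and no SiHa point lies outside the dashed lines.

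ZNF genes moved in both directions between the ME-180 libraries and stayed close to equal between the SiHa libraries. Calls of higher and lower needed a 2-fold ratio, taken on CPM + 1, and 1 CPM in a library of the pair. In ME-180, 53 of 174 members (30.5%) were higher in the library labelled knockdown than in the control, beside 28.2% of all 6783 genes tested, and 19 (10.9%) were lower, beside 20.6% of all genes. The median log2 ratio was 0.39 over the members, with quartiles at -0.37 and 1.13, and 0.28 over all genes. With genes at 0 counts set to 3 counts and no pseudocount, these medians were 0.41 and 0.31. The share of members that were higher lies near the share of all genes.

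The ratios depend on the scaling of the libraries. With TMM scaling, which moved the median of all genes from 0.28 to 0.02, 37 members were higher and 27 lower, so that 57.8% of the called members were higher, against 73.6% with the column totals. With that scaling 21.3% of members were higher and 15.5% lower, beside 22.2% and 24.0% of all genes. Among the 121 members with at least 5 CPM in both ME-180 libraries, 29 (24.0%) were higher and 5 (4.13%) lower, beside 23.7% and 11.7% of the 4361 genes at that level. The other calls therefore came from members under 5 CPM in at least 1 of the ME-180 libraries. Of the 174 members, 3 were under 5 CPM in both. In SiHa, 0 of 168 members were higher or lower with overexpression, beside 0.572% and 0.743% of 6996 genes, and the median log2 ratio was -0.04 over the members and -0.05 over all genes. The member ratios in SiHa ran from -0.70 to 0.59, and those in ME-180 from -4.45 to 4.89. By the adjusted p-values in the authors' deposited table, below 0.05, 36 of 174 members were higher and 29 lower in ME-180, beside 22.0% and 24.9% of all genes, and 0 of 168 passed in SiHa, beside 0.114% higher and 0.1% lower of all genes. The smallest adjusted p of a member in SiHa was 1.0 in the authors' deposited table.

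**Figure D2:**
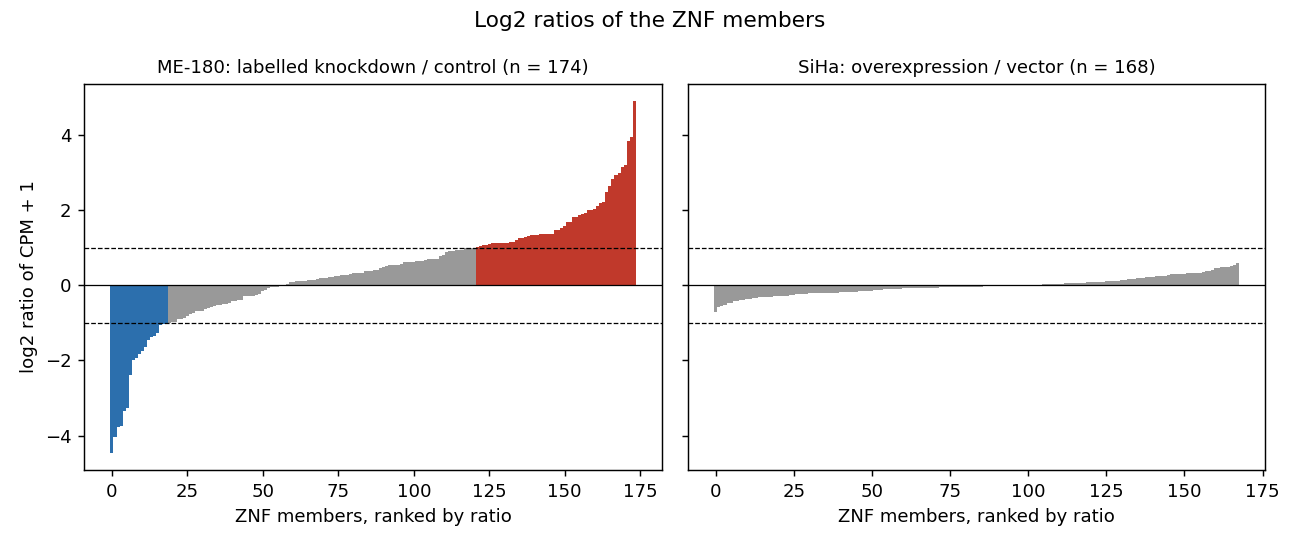
Log2 ratio of CPM + 1 for each ZNF member, ranked from lowest to highest within a pair (left, ME-180 labelled knockdown over control, 174 genes; right, SiHa overexpression over vector, 168 genes). Dashed lines mark a 2-fold ratio, red bars are the 53 genes higher and blue bars the 19 genes lower in ME-180, and all SiHa bars lie between -0.70 and 0.59.

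The members called in ME-180 were set beside their SiHa ratios, from a pair with a smaller TP63 difference in the other direction. Of the 53 that were higher in the library labelled knockdown, 43 reached 1 CPM in SiHa, and 13 of these lay above 0 and 30 below 0 with overexpression, with a median log2 ratio of -0.11 and a range from -0.70 to 0.41. Of the 19 that were lower, 12 reached 1 CPM in SiHa, 5 above and 7 below 0, with a median of -0.02 and a range from -0.29 to 0.51. The 98 members that were not called in ME-180 and reached 1 CPM in SiHa had a median of -0.01. Of all 168 members at 1 CPM in SiHa, 70 lay above and 98 below 0. All these SiHa values were under 2-fold. TP63 was at 13.1 CPM in SiHa with overexpression and 0.493 CPM in the SiHa vector. In ME-180 it was at 0.597 CPM in the library labelled knockdown and 520 CPM in the control. The part of this unlike contrast in the SiHa values was not tested.

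A group of 8 members was read in the library labelled knockdown and almost or fully unread in the ME-180 control. On was defined as at least 5 CPM in 1 library of a pair with 3 or fewer counts in the other, and these 8 were 4.68% of the 171 members at 5 CPM in ME-180, beside 3.07% of all genes at that level. The reverse held for 4 members, 2.34%, beside 4.58% of all genes. In SiHa, 0 of 134 members were on or off, beside 0% of all genes on and 0.0183% off with overexpression.

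The 250 bases before the annotated start of 3 of the members that were on and 2 that were off are shown here, because their promoters differ widely in CpG sites, the dinucleotides that DNA methylation acts on. They are RefSeq sequences of build GRCh38.p14, which is not the build of the deposited tables, written 5′ to 3′ on the strand of the gene, with each CpG in capitals.
ZNF300 (on; chr5:150904981-150905230, minus strand): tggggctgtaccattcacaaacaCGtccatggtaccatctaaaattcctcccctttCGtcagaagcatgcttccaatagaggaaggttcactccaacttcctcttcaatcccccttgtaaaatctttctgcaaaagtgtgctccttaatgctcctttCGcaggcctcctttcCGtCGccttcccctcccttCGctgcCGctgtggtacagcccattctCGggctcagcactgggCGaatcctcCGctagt
ZNF492 (on; chr19:22634074-22634323, plus strand): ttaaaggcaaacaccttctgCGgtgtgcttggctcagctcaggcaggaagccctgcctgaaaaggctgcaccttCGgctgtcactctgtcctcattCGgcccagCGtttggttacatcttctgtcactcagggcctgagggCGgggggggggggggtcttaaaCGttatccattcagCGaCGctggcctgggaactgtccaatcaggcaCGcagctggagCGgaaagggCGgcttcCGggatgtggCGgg
ZNF568 (on; chr19:36916082-36916331, plus strand): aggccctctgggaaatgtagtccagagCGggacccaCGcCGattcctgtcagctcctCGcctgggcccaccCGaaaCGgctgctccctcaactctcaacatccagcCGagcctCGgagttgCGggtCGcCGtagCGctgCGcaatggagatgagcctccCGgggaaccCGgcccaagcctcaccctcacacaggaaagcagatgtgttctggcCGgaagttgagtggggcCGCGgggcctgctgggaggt
ZNF808 (off; chr19:52527418-52527667, plus strand): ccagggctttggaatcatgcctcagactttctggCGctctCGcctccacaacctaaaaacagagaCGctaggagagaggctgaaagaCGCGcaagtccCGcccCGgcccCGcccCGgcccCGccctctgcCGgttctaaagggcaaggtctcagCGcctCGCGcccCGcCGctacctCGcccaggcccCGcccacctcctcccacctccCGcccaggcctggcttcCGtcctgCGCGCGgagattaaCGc
ZNF844 (off; chr19:12064481-12064730, plus strand): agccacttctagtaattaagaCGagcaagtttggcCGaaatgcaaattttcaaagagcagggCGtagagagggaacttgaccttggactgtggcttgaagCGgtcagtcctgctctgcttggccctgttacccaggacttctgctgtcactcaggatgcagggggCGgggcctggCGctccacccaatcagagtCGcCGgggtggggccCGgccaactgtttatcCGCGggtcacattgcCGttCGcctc
ZNF300 holds 10 CpG sites in this stretch, ZNF492 13, ZNF568 18, ZNF808 24 and ZNF844 13, so neither the on nor the off members share a high or a low number.

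ZNF536, which encodes a zinc finger protein known mainly from brain, had the highest ratio of the members. It had 288 counts (28.7 CPM) in the library labelled knockdown and 0 in the ME-180 control. With the 0 set to a floor of 3 counts it was 103-fold higher, and such folds are written below as at least that fold. They are not confidence limits. Lower 95% limits were taken from the counts as read, with the 0 kept, and can lie under the fold, here at 83.4-fold. SiHa has no row for ZNF536. ZNF300, a KRAB zinc finger gene, had 143 counts (14.2 CPM) in the library labelled knockdown and 0 in the ME-180 control, at least 51.3-fold higher (lower 95% limit 41.2-fold). The same ZNF300 transcript had 239 counts (17.5 CPM) in SiHa with overexpression and 206 counts (14.5 CPM) in the SiHa vector, so the ME-180 control was the library without reads, and the others lay within 14.2 to 17.5 CPM. A second ZNF300 transcript had 116 counts in the library labelled knockdown and 4 in the ME-180 control.

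ZNF470, another KRAB zinc finger gene, had 133 counts (13.2 CPM) in the library labelled knockdown and 0 in the ME-180 control, at least 47.7-fold higher (lower 95% limit 38.2-fold). In SiHa it had 8 counts with overexpression and 13 counts with the vector, under 1 CPM in each. ZNF329 had 78 counts in the library labelled knockdown and 0 in the ME-180 control, at least 28.0-fold higher, and has no SiHa row. ZNF470 was therefore read at low levels in SiHa, unlike ZNF300.

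ZNF492 and ZNF429, KRAB genes of a primate-expanded cluster on chromosome 19, had 69 and 67 counts in the library labelled knockdown and 0 each in the ME-180 control, at least 24.7-fold and 24.0-fold higher. ZNF492 had 6 counts in SiHa with overexpression and 19 in the SiHa vector, a count ratio of 0.328 with a 95% interval of 0.107 to 0.854. ZNF429 had 10 counts in SiHa with overexpression and 11 in the SiHa vector. ZNF568, whose mouse counterpart represses a placental Igf2 transcript, had 61 counts in the library labelled knockdown and 0 in the ME-180 control, at least 21.9-fold higher. All of its 6 transcripts had 0 counts in the ME-180 control and between 11 and 61 counts in the library labelled knockdown, which are partly the same reads. ZNF549, a KRAB gene, had 58 counts in the library labelled knockdown and 1 in the ME-180 control, a count ratio of 62.4 with a 95% interval of 10.8 to 2506. In SiHa, the transcripts of ZNF568 had between 0 and 6 counts with overexpression and between 0 and 10 with the vector, and those of ZNF549 had 2 or 3 in each library.

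Among the 4 members that were off, ZNF311 is a KRAB gene of the extended MHC region on chromosome 6. ZNF311 had 3 counts in the library labelled knockdown and 179 (16.6 CPM) in the ME-180 control, a control to knockdown count ratio of 55.5 with a 95% interval of 18.7 to 272. In SiHa, ZNF311 had 55 counts (4.02 CPM) with overexpression and 37 counts (2.60 CPM) with the vector. ZNF844, a KRAB gene, had 0 counts in the library labelled knockdown and 167 (15.5 CPM) in the ME-180 control, at least 51.8-fold lower. Its SiHa counts were 4 with overexpression and 0 with the vector, so ZNF844 was read above 5 CPM in the ME-180 control only.

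ZNF229 had 0 counts in the library labelled knockdown and 138 (12.8 CPM) in the ME-180 control, at least 42.8-fold lower, and has no SiHa row. ZNF808, a KRAB gene known for binding retroelements and for its part in human pancreas development, had 0 counts in the library labelled knockdown and 99 (9.16 CPM) in the ME-180 control, at least 30.7-fold lower. In SiHa, ZNF808 had 65 counts (4.75 CPM) with overexpression and 44 counts (3.10 CPM) with the vector, a count ratio of 1.53 with a 95% interval of 1.03 to 2.30. Of the 4, ZNF311 and ZNF808 were thus read in both SiHa libraries, while ZNF844 had at most 4 counts there.

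**Figure D3:**
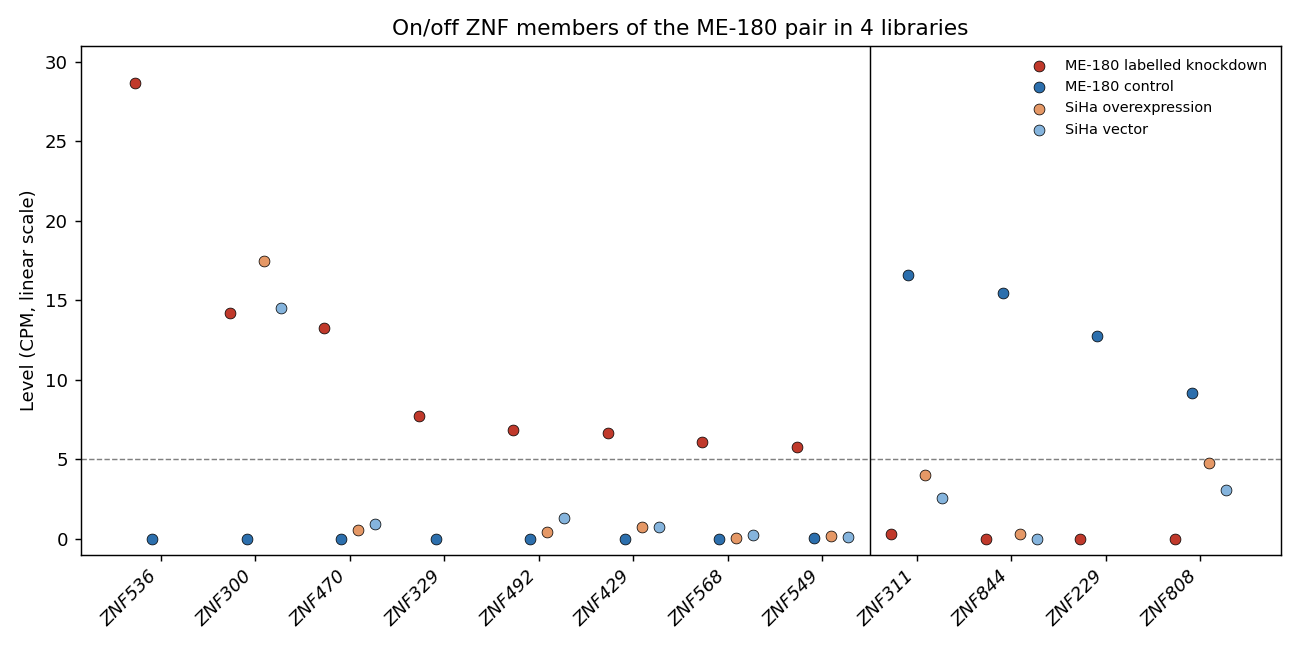
Level in CPM, on a linear axis, of the 8 members on (left of the vertical line) and the 4 members off (right) in the library labelled knockdown, in each of the 4 libraries, with 1 point per library and the same transcript in all of them; ZNF536, ZNF329 and ZNF229 have no SiHa row and so no SiHa points. The dashed line marks 5 CPM, and ZNF300 is the only one of the 12 whose SiHa points, at 17.5 and 14.5 CPM, lie above it.

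ZNF185 and ZNF385A were the members with the most counts in the ME-180 control among the 10 lowest log2 ratios. ZNF185 encodes a LIM domain protein of the actin cytoskeleton rather than a KRAB repressor, and had 23 counts (2.29 CPM) in the library labelled knockdown and 768 counts (71.1 CPM) in the ME-180 control. Its control to knockdown count ratio was 31.05 with a 95% interval of 20.5 to 49.3, and its log2 ratio of -4.45 was the lowest of all members. All 7 of its transcripts had log2 ratios between -4.75 and -4.02. In SiHa, its transcript with the most reads had 6 counts with overexpression and 5 with the vector, so it was close to unread in both.

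ZNF385A, a zinc finger protein that binds p53 and RNA, had 288 counts (28.7 CPM) in the library labelled knockdown and 3046 counts (282 CPM) in the ME-180 control. The control to knockdown count ratio was 9.83 with a 95% interval of 8.71 to 11.1. In SiHa it had 51 counts (3.73 CPM) with overexpression and 63 counts (4.43 CPM) with the vector. The ME-180 control was the library in which ZNF185 and ZNF385A were high, and the other 3 libraries were lower.

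The remaining members among the 10 lowest in ME-180 were KRAB genes at lower read numbers. ZNF836 had 18 counts in the library labelled knockdown and 146 in the ME-180 control, and ZNF20 had 19 and 114 in the same order of libraries. ZNF860 had 7 counts in the library labelled knockdown and 59 in the ME-180 control, and ZNF793 had 19 and 101 in the same order. Their log2 ratios were -2.38 for ZNF836, -1.998 for ZNF20, -1.93 for ZNF860 and -1.84 for ZNF793. In SiHa, ZNF836 was read at 7.23 CPM with overexpression and 7.25 CPM with the vector, while ZNF793 had 0 and 4 counts in the same order.

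Among the 10 highest in ME-180, ZNF829 and ZNF783 were the members that were not on or off. ZNF829, a KRAB gene next to ZNF568, had 117 counts in the library labelled knockdown and 4 in the ME-180 control, a count ratio of 31.5 with a 95% interval of 11.96 to 117. ZNF783, a KRAB gene on chromosome 7, had 805 counts (80.1 CPM) in the library labelled knockdown and 147 counts (13.6 CPM) in the ME-180 control, a count ratio of 5.89 with a 95% interval of 4.93 to 7.07. In SiHa, ZNF783 had 66.0 CPM with overexpression and 72.5 CPM with the vector, so that here too the ME-180 control was the lowest library.

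The 5 members with the highest mean CPM varied less. CPM is not divided by transcript length, so these levels are read shares and are not compared between genes. ZNF664 had 398 CPM in the library labelled knockdown and 167 CPM in the ME-180 control, a log2 ratio of 1.25 that was 0.97 with TMM scaling, and 133 CPM in SiHa with overexpression and 150 CPM with the vector. ZNF207, the kinetochore protein BuGZ, had 145 CPM in the library labelled knockdown and 192 CPM in the ME-180 control, and 127 and 126 CPM in SiHa with overexpression and vector. ZNF787 had 199 and 128 CPM, ZNF629 had 230 and 142 CPM, and ZNF740 had 187 and 172 CPM, each in the library labelled knockdown and then the ME-180 control. Of these 5, ZNF664 was called and the other 4 lay within 2-fold in ME-180.

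In SiHa the largest ratios were under 2-fold. Among members with at least 50 counts in a SiHa library, the 5 highest were ZNF555 (127 counts with overexpression, 83 with the vector, log2 ratio 0.59), ZNF112 (95 and 64, 0.53), ZNF808 (65 and 44, 0.49), ZNF414 (348 and 255, 0.48) and ZNF311 (55 and 37, 0.48). The 5 lowest were ZNF425 (105 counts with overexpression, 171 with the vector, log2 ratio -0.59), ZNF572 (45 and 73, -0.52), ZNF778 (89 and 135, -0.49), ZNF430 (42 and 66, -0.47) and ZNF275 (251 and 355, -0.43). The ME-180 log2 ratios of the highest were 0.64 for ZNF555, -0.62 for ZNF112, -3.35 for ZNF808, 0.40 for ZNF414 and -3.76 for ZNF311. Those of the lowest were 1.32 for ZNF425, 1.13 for ZNF778, 0.33 for ZNF430 and 0.53 for ZNF275, and ZNF572 has no ME-180 row. ZNF555 and ZNF414 thus lay above 0 in ME-180 and in SiHa, and the others with a row lay on opposite sides. A link between the pairs was not tested. Each of these ratios was below the 2-fold rule.

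Functional lists of ZNF genes were described by their counts, to be read beside the 28.2% of all genes that were higher and the 20.6% that were lower in ME-180, or 22.2% and 24.0% with TMM scaling. Of 24 ZNF genes known as methylated in tumours, 12 had an ME-180 row and 10 reached 1 CPM, of which 6 were higher and 1 lower, with a median log2 ratio of 1.51. With TMM scaling 6 were higher and 3 lower. The 6 were ZNF568 (2.82), ZNF549 (2.63), ZNF471 (2.16), ZNF583 (1.80), ZNF382 (1.68) and ZNF529 (1.34), and the lower one was ZNF177 (-1.34). Of these 7, ZNF471, ZNF583 and ZNF382 stayed under 5 CPM and are not members: ZNF471 had 35 counts in the library labelled knockdown and 0 in the ME-180 control, and ZNF583 had 25 and 0 in the same order. Over the 6 members of this list, 3 were higher and 1 lower, with a median of 0.22 that was -0.03 with TMM scaling. Methylation was not measured in these libraries.

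Of the KRAB zinc finger genes known to bind retroelements, 9 of 20 reached 1 CPM in ME-180, with 4 higher and 3 lower. ZNF429 (2.94), ZNF382 (1.68), ZNF425 (1.32) and ZNF248 (1.11) were higher, and ZNF808 (-3.35), ZNF141 (-1.73) and ZNF846 (-1.37) were lower, so this list was split, with a median of -0.43. With TMM scaling 3 were higher and 3 lower with a median of -0.70, and ZNF248 was at 0.85. ZNF141 had 0 counts in the library labelled knockdown and 25 in the ME-180 control and is below the member threshold. The 5 SCAN domain members all lay above 0 and ZNF444 (1.13) was the only one called, with a median of 0.52. None of the 5 was called with TMM scaling.

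Most ZNF genes with cofactor or RNA roles and no KRAB domain lay within 2-fold in ME-180. Of 9 such members with an ME-180 row, ZNF536 was higher and the other 8 lay within 2-fold, with a median of 0.44. ZNF451, a SUMO ligase, was at 0.95, ZNF638, an RNA-binding protein that recruits the HUSH silencing complex to unintegrated retroviral DNA, at 0.44, and ZNF384, a transcription factor, at 0.61 on the log2 scale. ZNF143, a transcription factor that binds many promoters, has no ME-180 row and had 48.5 CPM in SiHa with overexpression and 42.7 CPM with the vector.

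The partners of KRAB proteins were partly measured. Of 35 genes of the TRIM28 pathway and of DNA methylation, 18 had an ME-180 row, TRIM28 itself not among them, and 6 (33.3%) were higher and 0 lower, with a median log2 ratio of 0.17 that was -0.11 with TMM scaling. The share higher lies near the 28.2% of all genes, beside 20.6% of all genes lower. SUV39H2, a histone H3K9 methyltransferase, had 436 counts in the library labelled knockdown and 96 in the ME-180 control (2.17). SETDB1, the methyltransferase that TRIM28 recruits, had 1248 and 483 counts in the same order of libraries (1.45). SMARCAD1 (1.35), FAM208A (the HUSH subunit TASOR, 1.32), DNMT3B (1.20) and DNMT1 (1.03) were also higher. With TMM scaling 4 of the 6 kept a 2-fold ratio, DNMT3B was at 0.93 and DNMT1 at 0.75, and CHD3, a chromatin remodeller, was lower at -1.10. In SiHa none of the 21 measured was called.

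Other zinc finger families at the same threshold gave mixed counts in ME-180, where 28.2% of all genes were higher and 20.6% lower. ZSCAN genes, which join a SCAN domain to zinc fingers, had 5 of 7 higher and 1 lower, with ZSCAN12 at 163 counts in the library labelled knockdown and 0 in the ME-180 control and ZSCAN18 at 114 and 0. Both ZKSCAN genes were higher, ZKSCAN2 by 1.68 and ZKSCAN3 by 1.14 on the log2 scale. ZBTB genes, which carry a BTB domain, had 5 higher and 5 lower of 19 (26.3% each), near the shares of all genes, and ZBTB7C had 79 counts in the library labelled knockdown and 28993 in the ME-180 control. ZFP genes had 1 higher and 1 lower of 4, and no gene of these 4 families was called in SiHa. With TMM scaling 3 of the 7 ZSCAN genes and 1 of the 2 ZKSCAN genes were higher in ME-180, and 1 ZBTB gene was higher in SiHa.

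Chromosome 19 members and the others differed in their counts. Of 173 members placed on the RefSeq annotation with an ME-180 row, 80 lie on chromosome 19, and 20 of them were higher and 14 lower, with a median log2 ratio of 0.02. With TMM scaling 15 were higher and 20 lower and the median was -0.24, so the balance of calls turned. The 93 members on other chromosomes had 33 higher and 5 lower, with a median of 0.68, and with TMM scaling 22 higher and 7 lower, with a median of 0.41. Genes without a ZNF name had 83 higher and 79 lower of 379 on chromosome 19 (median 0.19) and 1740 higher and 1275 lower of 6109 elsewhere (median 0.29). On chromosome 7, 7 of 11 members were higher and 0 lower (median 1.32), ZNF783 and ZNF425 among them. On chromosome 10, 4 of 4 were higher, and on chromosome 16, 5 of 15 were higher and 0 lower. With TMM scaling 6 were higher and 1 lower on chromosome 7, 1 of the 4 was higher on chromosome 10, and 4 of 15 were higher on chromosome 16. On chromosome 8, 0 of 6 members were higher or lower (median 0.47), and on chromosome 17, 0 of 4 (median -0.29). Other genes were counted on chromosome 19 and elsewhere only. A shift of all genes on chromosome 7, 10 or 16 was therefore not tested.

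Neighbouring members often lay on the same side of 0. With at most 5 annotated genes between them, 58 of 80 adjacent pairs of members (72.5%) had log2 ratios of the same sign in ME-180. This stands beside 59.9% of 5871 pairs of other genes, those without a ZNF name and with at least 1 CPM in a library. The sets are not alike, since 116 of 174 members and 3963 of all 6783 genes lay above 0. A larger majority on 1 side gives more pairs of the same sign, and its part was not tested. With TMM scaling these shares were 68.8% and 59.8%. Where both genes of a pair were called, 16 of 19 member pairs (84.2%) were called in the same direction, beside 69.7% of 1475 pairs of other genes. Related neighbours can share reads where their sequences are near-identical, and the part of this in the agreement was not tested.

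Runs of at least 5 such neighbours numbered 9, held 52 members and all lay on chromosome 19. In the run ZNF433 to ZNF799, all 5 members lay below 0 and 3 were lower, ZNF433, ZNF844 and ZNF20, with a median of -1.28. In the run ZNF404 to ZNF229, 3 of 8 were lower, ZNF155, ZNF284 and ZNF229, while ZNF404 was higher. In ZNF613 to ZNF766, 3 of 5 were lower, ZNF841, ZNF836 and ZNF766, and 0 higher. The run ZNF565 to ZNF568 went the other way with column totals, with 7 of 8 above 0 and 3 higher, ZNF529, ZNF829 and ZNF568. Of the 7, ZNF566 (0.12), ZNF260 (0.11) and ZNF850 (0.20) lay below the median of all genes, 0.28. With TMM scaling ZNF529 (1.08), ZNF829 (3.04) and ZNF568 (2.70) kept a 2-fold ratio. Sides of 0 within the runs were counted with column totals only. ZNF805 to ZNF549 had 2 of 5 higher, ZNF772 and ZNF549, and ZNF808 to ZNF160 was mixed, with ZNF808 and ZNF160 lower and ZNF83 higher. SiHa ratios in the 9 runs lay between -0.40 and 0.53.

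**Figure D4:**
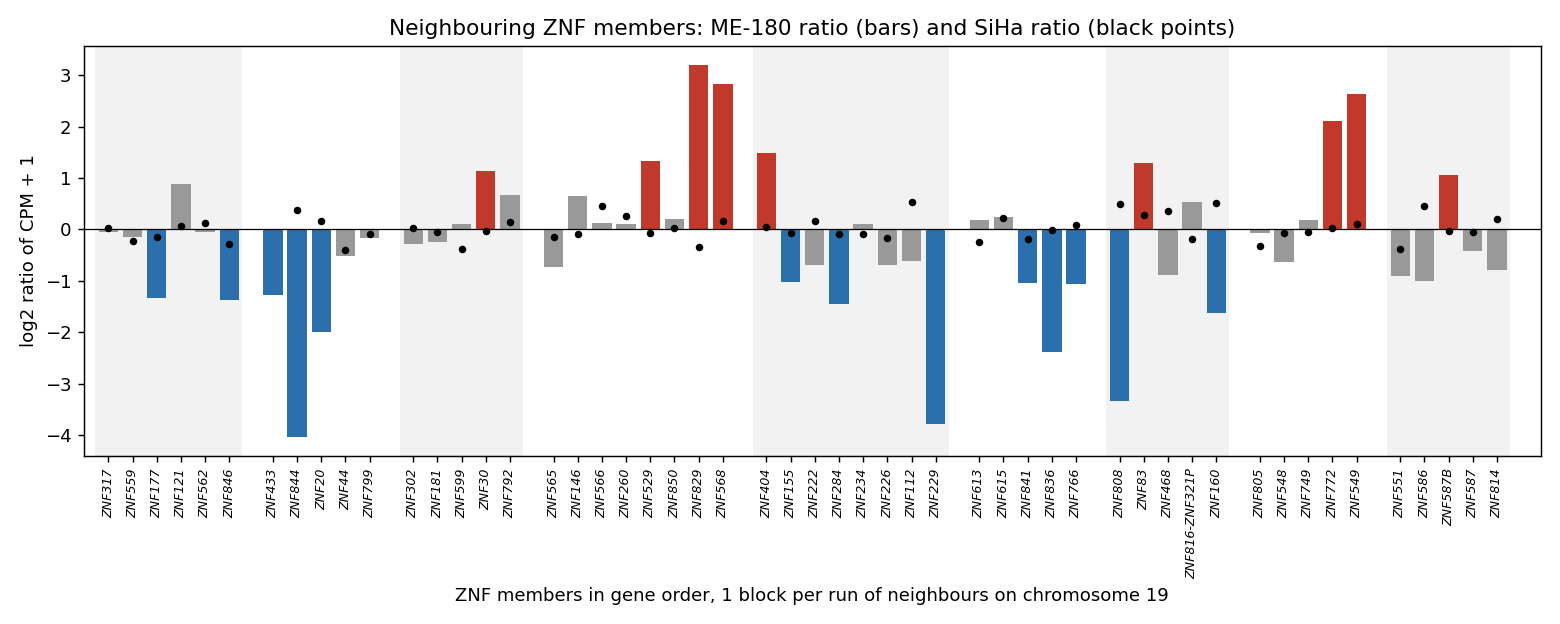
Log2 ratio of CPM + 1, labelled knockdown over control, for the 52 ZNF members in 9 runs of neighbours on chromosome 19, in gene order, with 1 bar per gene (red, at least 2-fold higher; blue, at least 2-fold lower; grey, neither) and black points for the SiHa ratio of overexpression over vector. Shading separates the runs; the second run, ZNF433 to ZNF799, has all 5 bars below 0, and the SiHa points stay between -0.40 and 0.53.

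Promoter sequences, 250 bases before to 50 after the start, were found for 171 members. The members had a median of 22 CpG sites per 300 bases, beside 14 in all 27305 promoters of the table and 24 in the 5502 promoters of genes measured in ME-180. The median was 23 in members that were higher, 20 in those that were lower and 22 in those not called. The 8 members that were on had a median of 21 CpG sites and the 4 that were off 19.5, so the groups lay close together.

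Words of 11 bases that many member promoters share were counted on both strands. They were taken from the members' own promoters, so their shares are a description and not a test. Among words found in at least 10 members, GCTTCCGGGAT (ATCCCGGAAGC on the other strand) had the highest share in members relative to all promoters, with 10 of 171 members (5.85%) beside 0.103% of all 27305 promoters and 0.236% of those of measured genes. The members with it were ZNF107, ZNF195, ZNF267, ZNF492, ZNF493, ZNF595, ZNF669, ZNF675, ZNF680 and ZNF720, on 6 chromosomes, and 9 of the 10 held it within 41 bases before the start. Of the 8 with an ME-180 row, 3 (ZNF107, ZNF492 and ZNF493) were higher and 5 not called, beside 28.2% of all genes higher. In the sequence of ZNF492 above it begins at position -19, counted from the start.

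ACTACATTTCC (GGAAATGTAGT on the other strand) was the word found in the most members among those whose share was at least 10 times that in all promoters, with 15 of 171 (8.77%) beside 0.458%. In promoters of genes measured in ME-180 its share was 0.782%. Of the 15 members with it, 7 were higher, 1 lower and 7 not called in ME-180. Of all genes 28.2% were higher and 20.6% lower. No link of either word with a call was tested. The ZNF568 sequence above holds it on the opposite strand from position -240. A match of letters is not a binding site, and related ZNF promoters share ancestry.

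Across cell lines, ZNF levels of the library labelled knockdown had the higher correlation with those of the SiHa vector, and those of the ME-180 control had fewer members 2-fold apart from it. This was read over the 168 members with a transcript in both tables, whose totals were set separately, and as a correlation across genes that share length and sequence content. On the log2(CPM + 1) scale, Pearson's r was 0.81 for the library labelled knockdown with the SiHa vector, 0.72 for the ME-180 control with the SiHa vector, 0.64 between the ME-180 libraries and 0.99 between the SiHa libraries. Over all 7587 genes with a shared transcript these were 0.89, 0.86, 0.81 and 0.99 in the same order. By the share of members at least 2-fold apart the order differed. It was 41.6% for the library labelled knockdown and 30.6% for the ME-180 control against the SiHa vector, beside 43.9% and 37.9% of all genes. Most lay higher in ME-180, 60 higher and 2 lower in the library labelled knockdown and 36 and 9 in the ME-180 control. The median log2 ratio at 5 CPM was 0.72 over members and 0.68 over all genes for the library labelled knockdown. For the ME-180 control these medians were 0.47 and 0.29. The shares thus include a shift of all genes between separately scaled tables, whose part was not tested.

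Members read in 1 of the lines and not in the other were few. Read on the transcript shared by both tables, ZNF185, ZNF284, ZNF813 and ZNF844 reached 5 CPM in the ME-180 control and had 3 or fewer counts in the SiHa vector, 4 of 147 members, beside 1.89% of all genes. For ZNF185 that transcript had 1 count in the SiHa vector, and other ZNF185 transcripts had up to 5. ZNF300 was the 1 member in the reverse direction, beside 1.23% of all genes. In the library labelled knockdown set against the SiHa vector, ZNF549 was the 1 of 149 members on in the library labelled knockdown only, beside 0.291% of all genes, and 0 members were on in the SiHa vector only, beside 2.23% of all genes.

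Some values carry a counting limit. Of 59 members with several transcripts at 1 CPM in ME-180, 52 had all transcripts on the same side of 0 and 0 had transcripts called in opposite directions. The near-identical pairs ZNF286A and ZNF286B, ZNF587 and ZNF587B, and ZNF780A and ZNF780B, and the read-through genes ZNF816-ZNF321P and ZNF559-ZNF177 can share reads and are uncertain as single genes. In the RefSeq annotation ZNF829 overlaps ZNF345, ZNF300 overlaps IRGM, ZNF20 overlaps the read-through gene ZNF625-ZNF20 and ZNF860 overlaps OSBPL10. Among other named members with overlaps, ZNF536 overlaps ZNF536-AS1, ZNF470 overlaps ZNF470-DT, ZNF385A overlaps GPR84-AS1 and ZNF793 overlaps ZNF793-AS1. ZNF664 overlaps ZNF664-RFLNA, and ZNF740 overlaps CSAD and ITGB7. Without a known strand setting the reads of overlapping genes cannot be told apart.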

How the data were processed

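RNA from 4 libraries of ME-180 and SiHa cells was analysed, with 1 library per group as the labels give it. The submitters' processing notes list TopHat, Cufflinks, DESeq2 and hg19 with no roles. How reads were counted, and with which strand setting, is not given in the sources used here. Raw whole-number counts per RefSeq transcript for each pair were deposited by the authors, beside a log2 fold change and p-values that are not quoted here. Reads can enter the rows of several transcripts.

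Counts were divided by the column total and scaled to 1000000 (CPM), and each gene was read from its transcript with the highest summed CPM. Log2 ratios used a pseudocount of 1 CPM, which shrinks low genes, and calls a 2-fold ratio with at least 1 CPM in a library. Exact 95% conditional binomial intervals cover counting error only, and folds against 0 counts used a floor of 3 counts in that library. Those folds are not confidence limits. No test was run, since 1 library per group allows none. Named genes were TP63, all on or off members, the 10 highest and lowest of ME-180 and 5 of SiHa with at least 50 counts, the 5 with the highest mean CPM, and list members, with other named genes chosen after their values were seen. The members and lists were chosen with earlier results of these data known. Gene order and promoters came from RefSeq GRCh38.p14, which placed 188 of 189 members, with no coordinates carried over from hg19. The call rules were checked on simulated counts in Python 3.11.15 (numpy 2.4.6, pandas 2.3.3, scipy 1.17.1); TMM factors came from edgeR 4.0.16. The alternatives were other pseudocounts, scalings, membership thresholds and transcript summaries. The p63 peaks and a split by KRAB domain were not analysed here.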

Additional observations from a re-analysis of the deposited data

How the results depend on the processing

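The 53 members higher in ME-180 became 34 with a pseudocount of 5 CPM, and 29 for members at 5 CPM in both libraries and 33 for members not on chromosome 19, alternatives that were chosen after seeing the data. The 19 lower members became 11, 5 and 5 under the same settings, and 12 with membership at 10 CPM; these restrictions leave fewer genes. With TMM scaling and with median-of-ratios scaling the ME-180 median log2 ratio of 0.39 became 0.12 and 0.13, as the scaling itself moves all ratios. In SiHa 1 member was higher and 1 lower with a pseudocount of 0.1 CPM, against 0 each, and the median of -0.04 became 0.00040 with TMM scaling. Of 275 values of named genes under alternatives, 267 kept their label of higher, lower or not called, 7 lost a call and 1 gained one. No named member had a call to keep in SiHa. In ME-180, ZNF664 and ZNF778 lost theirs with TMM scaling (0.97 and 0.88) and with median-of-ratios scaling (0.97 and 0.89). With a pseudocount of 5 CPM, ZNF425 (0.93), ZNF778 (0.78) and ZNF860 (-0.88) lost theirs. ZNF492 gained one in SiHa at -1.42 with a pseudocount of 0.1 CPM. No paired analysis was possible because each group has 1 library, and leaving a library out leaves no comparison. At these totals 3 counts equal 0.211 to 0.299 CPM, so members near that level could not be ranked.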
